A study of Mus musculus with 14 samples.

Results

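The enzymes described here burn long-chain fatty acids in the mitochondria of the liver and turn the product into a ketone body. They are 10 genes, Cpt1a, Slc25a20, Acadvl, Acad11, Hadh, Hadhb, Eci2, Decr1, Etfdh and Bdh1, chosen by their gene symbol on the array, and they are 10 of 19505 genes named on it. Each was read by 1 probe set, a group of short DNA probes for the transcripts of a gene, of 22206 tested. Hepatic RNA of 14 male C57BL/6N mice aged 10 weeks was measured on 14 Clariom S arrays, 1 liver per array. All mice wore adjustable clothes from the chest to the waist and were put under isoflurane to fit them. In the compression group (n = 7) the clothes were tightened to narrow the waist, and in the no-compression group (n = 7) they were not tightened. Livers were taken 8 hours after the load, in the light period, when mice rest. The mice had food at will, and what they ate was not analysed here, so that tightening and any change in feeding cannot be told apart in these livers. The labels do not say whether mice shared a cage, and the p-values rest on the spread between these 14 mice.

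Fatty acids reach the mitochondrion as acyl-CoA, are handed to carnitine by CPT1A at the outer membrane, cross the inner membrane on the carrier encoded by Slc25a20, and are then shortened step by step by beta-oxidation. Each round needs a dehydrogenase, a hydratase, another dehydrogenase and a thiolase, and double bonds need auxiliary isomerases and reductases. Electrons leave through the electron transfer flavoprotein, and the acetyl-CoA made in a fasting liver goes largely into ketone bodies. The nuclear receptor PPARA is known to turn on many of these genes in the fasted liver, and malonyl-CoA, the first product of fatty acid synthesis, blocks CPT1A.

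The values are log2 expression, drawn by the authors' factor analysis toward a constant wherever the probes of a probe set did not vary together. Most probe sets were almost flat (median SD 1.04e-05). The 1238 (5.58%) whose SD over all arrays exceeded 0.01 are called probe sets with spread. Of the 10 enzymes 9 had spread, and Etfdh did not. The array medians lay between 6.51 and 6.52. No-compression replicates 3, 6 and 7 stood apart from the other 11 arrays on the leading principal component of those with spread (57.1% of the variance), at 9.57, 16.7 and 9.45 against −6.73 to 2.25. Results are given with and without these 3 arrays. Of the 8 hepatocyte markers, such as albumin, all were measured, with a mean log2 level of 12.7 in every array, against a median of 6.51 over all probe sets. Only 2 of these 8 had spread, so a level alike in every array does not show an equal share of hepatocytes.

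All 10 enzymes had a higher mean in the compression group (9 of 10 under quantile normalization, where Etfdh turned to −0.00617), but no difference passed the test against the spread between mice. The log2 fold changes lay between 0.0028 for Etfdh and 0.25 for Bdh1, with a median of 0.11, where the median over all probe sets with spread was −0.0029. A higher mean was found in 48.3% of the probe sets with spread and in 49.6% of all probe sets. With limma 0 of the 10 passed an adjusted p of 0.05, as did 0 of 22206 probe sets (0.0%), and the adjusted p of limma lay between 0.943 and 0.969 for the 10. At an unadjusted p of limma under 0.05 there were 4 of the 10, against 2.73% of all probe sets and 4.85% of those with spread that were higher at that limit (5.19% of all in either direction). Rank products, the method that the study used, called 8 of the 10 as higher at an FDR of 0.01, where it called 1.31% of all probe sets and 23.1% of those with spread as higher, and 2.42% of all in either direction. When only the probe sets with spread were ranked, it called 0 of the 9 that have it and 0.242% of that set. The 10 genes were chosen with earlier results of these arrays known, so their shared direction is a description.

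**Figure D1:**
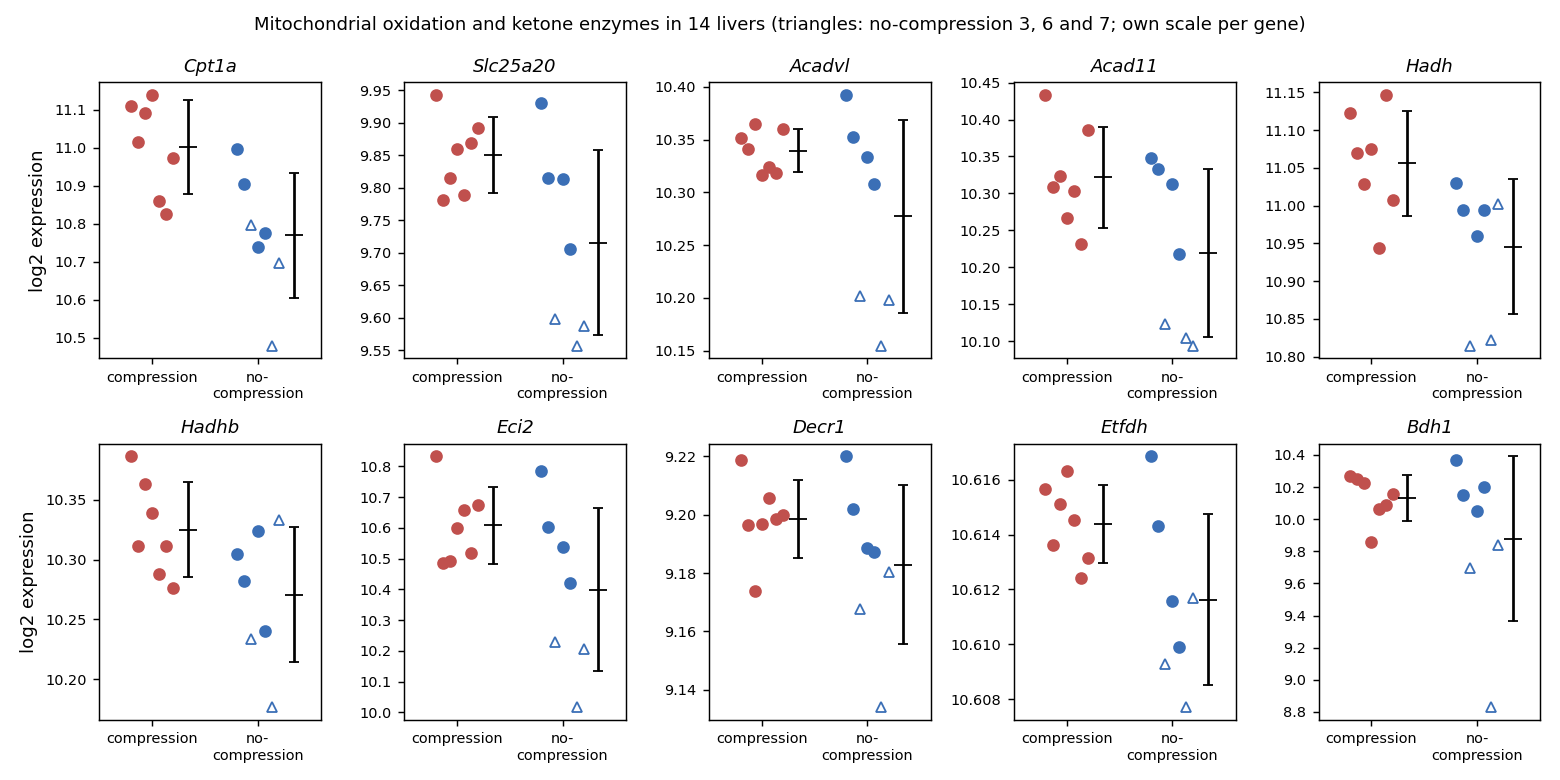
Log2 expression of the 10 enzymes in each of the 14 livers, each gene on its own scale, with the mean and SD (n = 7) of each group as a bar. The groups overlap in every panel, and no-compression replicates 3, 6 and 7 (open triangles) lie below all other arrays for Slc25a20, Acadvl, Acad11, Eci2 and Bdh1.

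The upstream sequences of Cpt1a, Slc25a20, Acadvl and Eci2 are shown because Cpt1a opens the pathway and the other 3 had the highest r with it over the 14 arrays after Etfdh (lower without no-compression replicates 3, 6 and 7, as given with the correlations). They are the 250 bases before the annotated start, 5′ to 3′ on the gene's strand, from RefSeq on GRCm38.p6. Capitals mark the nuclear receptor hexamer AGGTCA, the GC box GGGCGG and the CCAAT box CCAAT, each read on both strands. The windows lie at chr19:3323051-3323300 (plus strand), chr9:108661886-108662135 (plus strand), chr11:70015429-70015678 (minus strand) and chr13:34994145-34994394 (minus strand).
Cpt1a: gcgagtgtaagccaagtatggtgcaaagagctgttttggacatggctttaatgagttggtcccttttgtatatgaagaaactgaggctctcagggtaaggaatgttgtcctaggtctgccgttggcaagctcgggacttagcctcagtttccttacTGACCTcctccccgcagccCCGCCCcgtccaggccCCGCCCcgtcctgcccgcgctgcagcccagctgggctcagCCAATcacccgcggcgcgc
Slc25a20: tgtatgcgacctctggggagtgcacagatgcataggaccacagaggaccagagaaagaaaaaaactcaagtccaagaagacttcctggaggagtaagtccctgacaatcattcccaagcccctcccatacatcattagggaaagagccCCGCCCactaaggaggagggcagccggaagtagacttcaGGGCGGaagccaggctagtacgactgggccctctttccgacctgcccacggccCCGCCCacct
Acadvl: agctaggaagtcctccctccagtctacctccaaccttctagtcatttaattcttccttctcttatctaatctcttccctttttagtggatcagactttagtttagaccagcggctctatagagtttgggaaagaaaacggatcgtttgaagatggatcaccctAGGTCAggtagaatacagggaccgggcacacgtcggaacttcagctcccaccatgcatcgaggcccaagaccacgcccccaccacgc
Eci2: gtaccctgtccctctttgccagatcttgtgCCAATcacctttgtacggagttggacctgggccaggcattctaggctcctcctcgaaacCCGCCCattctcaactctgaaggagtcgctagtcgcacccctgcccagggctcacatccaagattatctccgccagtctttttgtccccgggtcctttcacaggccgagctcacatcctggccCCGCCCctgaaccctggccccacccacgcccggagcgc
Sequences were at hand for 9 of the 10 genes, in 10 windows, since Bdh1 has a pair of starts. The hexamer AGGTCA stood upstream of Cpt1a and Acadvl, in 2 of the 10 windows, and in 14% of all 32851 windows of this length. A direct repeat of this hexamer with a single base between the copies, a form that PPARA is known to bind, stood in 0 of the 10 windows and in 0.0335% of all windows. GC boxes stood upstream of 6 genes, with 3 of them before Slc25a20, and in 32.7% of all windows. CCAAT boxes stood upstream of 5 genes and in 33.8% of all windows. These are matches of letters and were not tested as sites.

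The gene for the entry of fatty acids, Cpt1a, had the lowest p of the 10 between the groups. It encodes the carnitine palmitoyltransferase of liver, which sets the rate of entry. Its log2 values ran from 10.82 to 11.14 with compression (median 11.01) and from 10.48 to 11.00 without it (median 10.78). Of the 7 compression arrays 4 lay above the highest no-compression array, and 5 no-compression arrays lay below the lowest compression array, with the groups overlapping between 10.82 and 11.00. The means were 11.00 ± 0.12 (SD, n = 7) and 10.77 ± 0.16 (SD, n = 7), a 1.17-fold difference with a log2 fold change of 0.23 and a 95% interval from 0.07 to 0.40. The adjusted p of limma was 0.943 and the two-sided exact permutation test of this gene alone gave p = 0.0111. Without no-compression replicates 3, 6 and 7 the log2 fold change was 0.15, with an interval from −0.02 to 0.31.
Slc25a20 encodes the carrier that takes acylcarnitine across the inner membrane. Its values ran from 9.78 to 9.94 with compression (median 9.86) and from 9.56 to 9.93 without it (median 9.71). The no-compression arrays were split, with replicates 3, 6 and 7 between 9.56 and 9.60 and the other 4 arrays from 9.71 upward. The log2 fold change was 0.13 with a standard error of 0.0572 (exact permutation p = 0.0443, adjusted p = 0.943 from limma), and 0.03 without these 3 arrays.

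The acyl-CoA dehydrogenases, which open each round of oxidation, had mean differences of 0.06 and 0.10 on the log2 scale. Acadvl, the dehydrogenase of very long chains, ran from 10.32 to 10.36 with compression (median 10.34) and from 10.15 to 10.39 without it (median 10.31). The highest array of all was no-compression replicate 1, and replicates 3, 6 and 7 lay at or below 10.20, under every other array. The SD was 0.0201 with compression and 0.0913 without it, 4.54 times as large. The log2 fold change of Acadvl was 0.06 (standard error 0.0347, exact permutation p = 0.129, adjusted p = 0.943 from limma) and turned to −0.0070 without replicates 3, 6 and 7. Acad11, a family member that also acts in peroxisomes, ran from 10.23 to 10.43 with compression (median 10.31) and from 10.09 to 10.35 without it (median 10.22). The 3 arrays again lay lowest, at 10.09 to 10.12, and the log2 fold change was 0.10 with all arrays (exact permutation p = 0.0659, adjusted p = 0.943 from limma) and 0.02 without them.

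Of the later steps of the spiral, Hadh and Hadhb were higher by small amounts that did not rest on the 3 arrays to the same extent. This did not hold for Hadha and Acaa2, later-step genes outside the 10, which moved to 0.0012 and −0.03 without these arrays. Hadh encodes the short-chain hydroxyacyl-CoA dehydrogenase and ran from 10.94 to 11.15 with compression (median 11.07) and from 10.81 to 11.03 without it (median 10.99). Of the compression arrays 4 lay above all no-compression arrays, and replicate 7 of the no-compression group, at 11.00, lay among the other arrays of its group. The log2 fold change of Hadh was 0.11 (95% interval 0.02 to 0.20, exact permutation p = 0.0245, adjusted p = 0.943 from limma) and 0.06 (−0.02 to 0.14) without the 3 arrays. Hadhb, the thiolase subunit of the trifunctional protein, ran from 10.28 to 10.39 with compression (median 10.31) and from 10.18 to 10.33 without it (median 10.28). Here no-compression replicate 7 was the highest of its group. The log2 fold change was 0.05 (exact permutation p = 0.0589, adjusted p = 0.943 from limma) and 0.04 without the 3 arrays.

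The auxiliary enzymes for unsaturated fatty acids were Eci2 and Decr1. Eci2, an enoyl-CoA isomerase found in mitochondria and peroxisomes, ran from 10.48 to 10.83 with compression (median 10.60) and from 10.02 to 10.78 without it (median 10.42). The highest arrays were compression replicate 1 and no-compression replicate 1, and the lowest were no-compression replicates 6, 7 and 3. The 1.16-fold difference of Eci2, a log2 fold change of 0.21 with a 95% interval from −0.03 to 0.45 (exact permutation p = 0.0839, adjusted p = 0.943 from limma), was 0.02 on the log2 scale without the 3 arrays. Decr1, the dienoyl-CoA reductase of mitochondria, stayed between 9.17 and 9.22 with compression and between 9.13 and 9.22 without it. Its log2 fold change was 0.0157 (exact permutation p = 0.202, adjusted p = 0.960 from limma) and turned to −0.000899 without the 3 arrays.

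Etfdh, which passes the electrons of these dehydrogenases to ubiquinone, was almost constant in the deposited values, with an SD of 0.00274 over the 14 arrays. It lay between 10.612 and 10.616 with compression and between 10.608 and 10.617 without it, and 5 no-compression arrays lay below the lowest compression array. Its 1.002-fold difference (exact permutation p = 0.0548) was called by rank products (FDR 0.00897), while Acadvl, with a larger fold change, was not (FDR 0.0182).
Bdh1, which reduces acetoacetate to 3-hydroxybutyrate, had the largest mean difference and the largest spread of the 10. It ran from 9.86 to 10.27 with compression (median 10.15) and from 8.83 to 10.37 without it (median 10.05). The value of 8.83 came from no-compression replicate 6, and the highest of all 14 from no-compression replicate 1. The log2 fold change of Bdh1 was 0.25 with a 95% interval from −0.18 to 0.68 (exact permutation p = 0.245, adjusted p = 0.969 from limma). It was 0.08 without no-compression replicate 6 alone and −0.06 without replicates 3, 6 and 7.

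**Figure D2:**
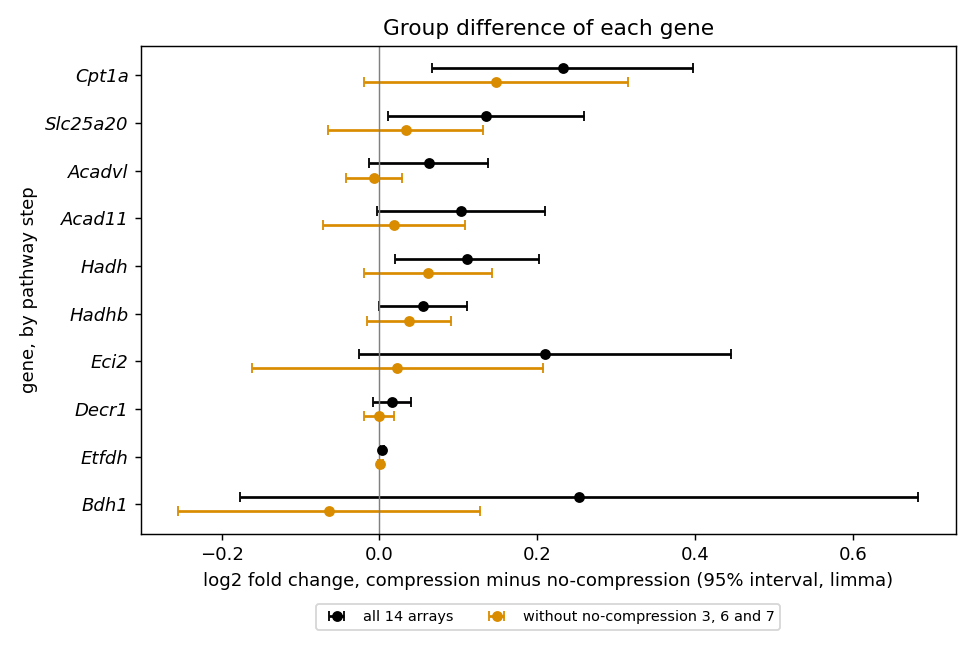
Log2 fold change of each enzyme, compression minus no-compression, with the 95% interval of limma, for all 14 arrays (black) and without no-compression replicates 3, 6 and 7 (orange). Cpt1a keeps 0.15 of its 0.23, while Slc25a20, Acad11, Eci2 and Bdh1 move to between −0.06 and 0.03.

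Without no-compression replicates 3, 6 and 7, 7 of the 10 enzymes had a higher mean with compression, and the median log2 fold change was 0.02 in place of 0.11. Of the probe sets with spread 46.0% were then higher. These arrays were chosen for lying apart on the leading component, and so their removal brings the groups closer in part by construction. The differences were then 0.15 for Cpt1a, 0.06 for Hadh and 0.04 for Hadhb, and the other 7 lay between −0.06 and 0.03.

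The spread between mice was larger without compression in all 10 enzymes, but in 5 of 10 once no-compression replicates 3, 6 and 7 were left out. With all arrays the SD of the no-compression group was between 1.29 times (Hadh) and 4.54 times (Acadvl) that of the compression group, with a median of 2.07, where the median over the probe sets with spread was 1.38 and 66.4% of these had the larger SD without compression. Equality of the SDs was not tested. No-compression replicate 6 was the lowest of the 14 arrays in 8 of the 10 enzymes, where it was lowest in 30.3% of the probe sets with spread. No-compression replicate 3 was among the lowest 3 arrays in 9 of the 10 and replicate 7 in 6. At the other end, compression replicate 1 was among the highest 3 arrays in 9 of the 10 enzymes and no-compression replicate 1 in 7. Replicates 3, 6 and 7 all lay below the other 11 arrays in 5 of the 10, against 17.8% of the probe sets with spread.

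**Figure D3:**
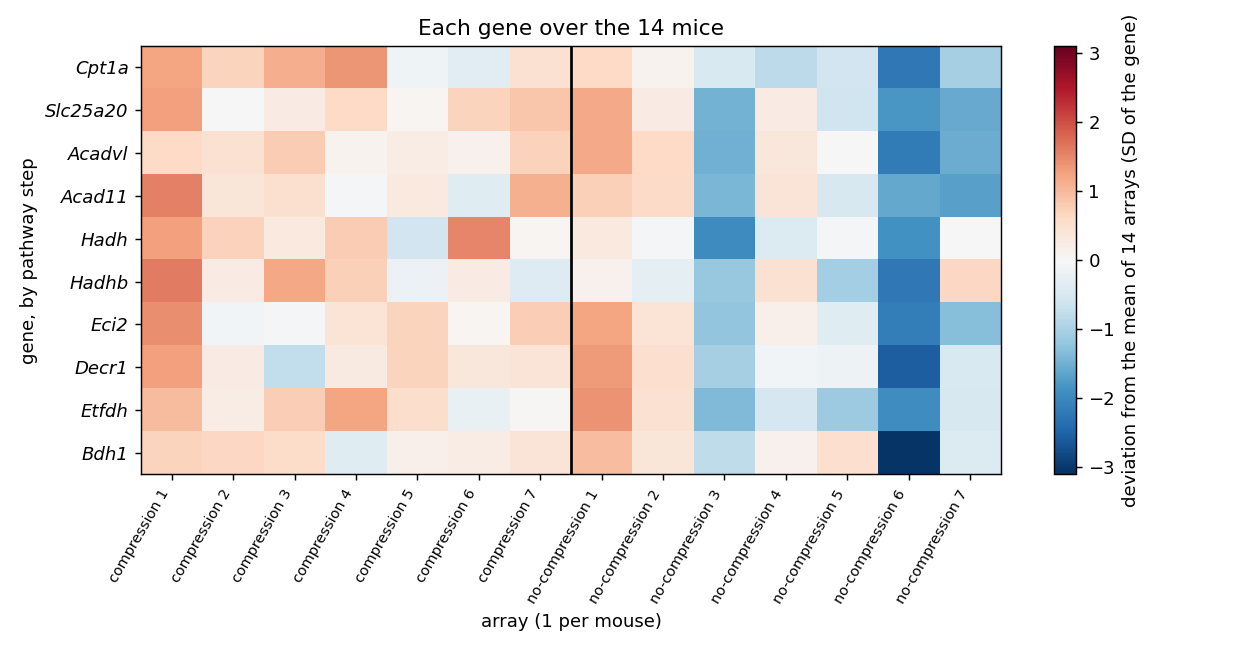
Deviation of each enzyme from its mean over the 14 arrays, in SDs of that gene, with genes in pathway order and the groups divided by a line. No-compression replicate 6 is blue and compression replicate 1 red in all 10 rows, while the compression columns 2 to 7 stay pale or mixed. No-compression replicate 1 likewise lies above the mean, and no-compression replicate 3 below it, in every row.

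A few markers of other cell types moved with some of these arrays, while most had no spread. The mean log2 level of 5 neutrophil genes lay between 5.75 and 5.85 with compression and between 5.73 and 6.09 without it, and 3 of the 5 had spread, all with lower means under compression (median log2 fold change −0.19, and 0.03 without the 3 arrays). All 5 were weak signals, with means over the 14 arrays from 5.58 to 6.05, below the median of 6.51 over all probe sets. The 5 bile duct markers lay between 6.29 and 6.47 and between 6.32 and 6.77, with spread only in Tff3, a secreted trefoil peptide (log2 fold change −0.77, and −0.01 without the 3 arrays). The 8 Kupffer cell markers lay between 8.14 and 8.25 and between 8.16 and 8.34. Only 3 of these 8 had spread, 1 with a higher and 2 with a lower mean under compression. Markers of endothelium (8.69 to 8.81 and 8.70 to 8.80) and stellate cells (7.67 to 7.69 and 7.67 to 7.68) overlapped. Only 1 of the 7 endothelial and 1 of the 8 stellate markers had spread, so this overlap says little about these cells. The 8 lymphocyte genes and 5 genes of fat and muscle had no spread. In whole liver fewer cells of a type and less RNA per cell cannot be told apart. The part of these cells in the differences of the enzymes was not tested.

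Across the 14 mice every enzyme correlated positively with Cpt1a, which opens the pathway. In pathway order Pearson's r with Cpt1a was 0.77 for Slc25a20, 0.77 for Acadvl, 0.75 for Acad11, 0.67 for Hadh, 0.72 for Hadhb, 0.77 for Eci2, 0.69 for Decr1, 0.87 for Etfdh (−0.32 after quantile normalization of its nearly flat values) and 0.71 for Bdh1. The two-sided permutation p of r lay between 6e-05 (Etfdh) and 0.00905 (Hadh). Spearman's rho lay between 0.53 for Decr1 (permutation p = 0.0567) and 0.86 for Etfdh (permutation p = 0.00011), with a permutation p under 0.05 in 8 of 9. In limma with the Cpt1a value as a covariate 0 of the 9 passed after adjustment over all 22205 other probe sets, with adjusted p from 0.0761 (Etfdh) to 0.365 (Hadh), and 0 of all probe sets passed (0.0%), although 1751 had an unadjusted p under 0.05. At that limit all 9 enzymes were positive, as were 4.13% of all probe sets and 23.4% of those with spread. With the group also in the model it was 8 of 9, against 3.49% and 16.5%. An r of at least 0.6 was found for 9 of 9 enzymes, for 17.5% of the probe sets with spread and for 2.37% of all. Of the probe sets with spread, 3.56% had an r as high as that of Slc25a20 and 11.9% as high as that of Hadh.

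The correlation was seen mainly in the no-compression group and with the 3 arrays that stood apart. Within the no-compression arrays r lay between 0.52 (Hadhb) and 0.93 (Decr1), and 7 of 9 had an exact permutation p under 0.05, the lowest 0.00655. Within the compression arrays r lay between −0.13 (Decr1) and 0.79 (Etfdh), and 1 of 9, Etfdh, had an exact permutation p under 0.05 (0.0405). Hadhb followed with 0.71 (exact permutation p = 0.0819) and the other 7 stayed at or below 0.42. The difference between the groups' correlations was not tested. Without no-compression replicates 3, 6 and 7 the median r fell from 0.75 to 0.47, and Etfdh (0.80, permutation p = 0.00258) and Hadhb (0.65, permutation p = 0.0294) were the enzymes with a p under 0.05, while Decr1 stood at 0.20 and Bdh1 at 0.10. Without the 2 arrays farthest from the median of Cpt1a, compression replicate 4 and no-compression replicate 6, 6 of 9 had a permutation p under 0.05. Hadh (0.46, permutation p = 0.132), Hadhb (0.49, permutation p = 0.103) and Decr1 (0.45, permutation p = 0.145) did not. Leaving out the extremes of Cpt1a also narrows its range.

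**Figure D4:**
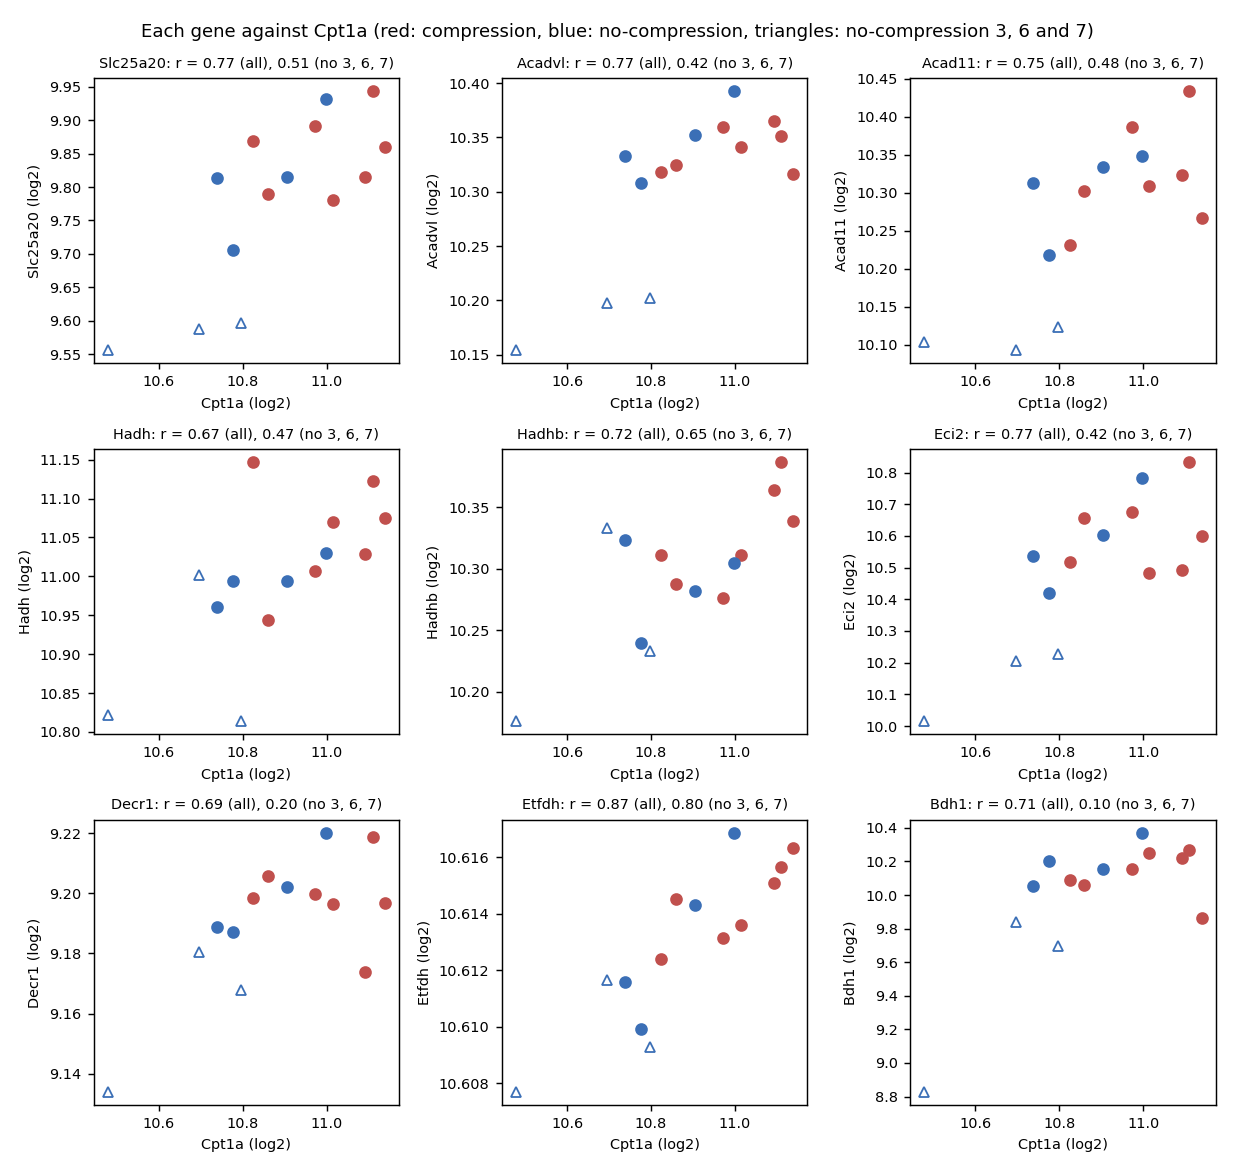
Log2 expression of each of the other 9 enzymes against that of Cpt1a, 1 point per mouse, with r over 14 arrays and over the 11 arrays without no-compression replicates 3, 6 and 7 (open triangles). The triangles lie below all other points for Slc25a20, Acadvl, Acad11, Eci2 and Bdh1, and r without them is highest for Etfdh (0.80) and Hadhb (0.65).

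Among themselves the 10 enzymes made 45 pairs, with r over the 14 arrays between 0.56 (Acad11 with Hadhb) and 0.95 (Slc25a20 with Eci2) and a median of 0.75. Slc25a20, Acadvl, Acad11 and Eci2 formed the closest group, with r between 0.91 and 0.95 for their pairs. Without the 3 arrays the pairs lay between −0.03 (Acadvl with Hadh) and 0.86 (Eci2 with Decr1), with a median of 0.48, and the pairs of the closest group lay between 0.56 (Acadvl with Eci2) and 0.83 (Slc25a20 with Eci2). These values share arrays and a common first component, and are given as a description.

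Other genes of the pathway were read from lists written down beside the members. Of 22 further genes of carnitine transport and beta-oxidation 20 were measured, and 4 had spread, all 4 with a higher mean under compression and 0 past the limit of limma. Their median log2 fold change was 0.07, and 0.03 without the 3 arrays, where Acaa2 turned to −0.03. Eci1, an isomerase of mitochondria related in function to Eci2, was at 8.47 ± 0.09 (SD, n = 7) with compression and 8.33 ± 0.14 without it, with a log2 fold change of 0.14 (0.05 without the 3 arrays). Hadha, the partner subunit of Hadhb, differed by 0.03 (0.0012 without them) and Acaa2, a thiolase, by 0.04. Crat, which moves short acyl groups onto carnitine, differed by 0.10 (0.15 without them). Eci1 (r = 0.63, permutation p = 0.0144), Hadha (0.62, permutation p = 0.0174) and Acaa2 (0.62, permutation p = 0.0206) correlated with Cpt1a over 14 arrays, with rho of 0.59, 0.48 and 0.40 (permutation p = 0.0285, 0.0837 and 0.156), and stood at 0.21, 0.04 and 0.08 without the 3 arrays. Crat stood at −0.09 (rho 0.00220, permutation p = 0.75 for r and 1.0 for rho). The 4 further ketone body genes measured had no spread. Acat1 varied most of them (SD 0.00582, against 1.04e-05 for the others) and more than Etfdh. Its log2 fold change was 0.0074 (unadjusted p = 0.0092 and adjusted p = 0.943 from limma), and 0.0044 without the 3 arrays. Its r with Cpt1a was 0.85 over 14 arrays and 0.62 without the 3 arrays, with no permutation test of it.

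Of 12 genes that control the pathway 11 were measured and 3 had spread. Ppara, the receptor itself, was at 10.26 ± 0.07 (SD, n = 7) with compression and 10.03 ± 0.26 without it, a log2 fold change of 0.23 (adjusted p = 0.943 from limma) that was 0.07 without the 3 arrays. It correlated with Cpt1a, with r = 0.87 (permutation p = 2e-05) and rho = 0.84 (permutation p = 0.00026) over 14 arrays, an adjusted p of 0.0673 from limma, r = 0.78 without the 3 arrays (permutation p = 0.00647) and 0.77 without the 2 farthest. Its r was 0.65 within the compression arrays (exact permutation p = 0.127) and 0.92 within the others (exact permutation p = 0.00417). Acaca, which makes malonyl-CoA, had a negative r with Cpt1a. It was at 8.61 ± 0.22 (SD, n = 7) with compression and 8.71 ± 0.19 without it (log2 fold change −0.11, and −0.16 without the 3 arrays), and the r was −0.51 over 14 arrays (permutation p = 0.0624, rho −0.53, permutation p = 0.0524) and −0.84 over the 11 without replicates 3, 6 and 7 (permutation p = 0.00132, rho −0.73, permutation p = 0.0141). Within the compression arrays it was −0.75 (exact permutation p = 0.052) and within the no-compression arrays −0.22 (exact permutation p = 0.64). The adjusted p of limma over 14 arrays was 0.636. Ppargc1a, a coactivator of PPARA, showed r = 0.09 (permutation p = 0.745, rho −0.12, permutation p = 0.692) and a log2 fold change of 0.01 (0.12 without the 3 arrays).
Of 18 other mitochondrial genes, from the citric acid cycle and the respiratory chain, 17 were measured and 2 had spread, Cs with a higher and Uqcrc1 with a lower mean, and both with a lower mean without the 3 arrays. Cs, citrate synthase, differed by 0.02 on the log2 scale (−0.07 without the 3 arrays) and showed r = 0.23 with Cpt1a (permutation p = 0.439, rho 0.03, permutation p = 0.916). Without replicates 3, 6 and 7 its r was −0.61 (permutation p = 0.046, rho −0.56, permutation p = 0.0759). Uqcrc1, a core subunit of complex III, differed by −0.02 (−0.07 without the 3 arrays) and showed r = 0.22 (permutation p = 0.45, rho 0.13, permutation p = 0.659), and −0.48 without the 3 arrays (permutation p = 0.135, rho −0.39, permutation p = 0.234). With these 9 pathway genes 18 genes had a permutation test of their correlation with Cpt1a over the 14 arrays. An r was computed for all 22205 probe sets besides that of Cpt1a, the rest without this test. Each of the 18 genes was correlated again within the groups and with arrays left out, and by rank. The permutation p-values thus number many more than 18. They were not adjusted for this number. The adjusted p of limma beside them was taken over all probe sets.

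**Figure D5:**
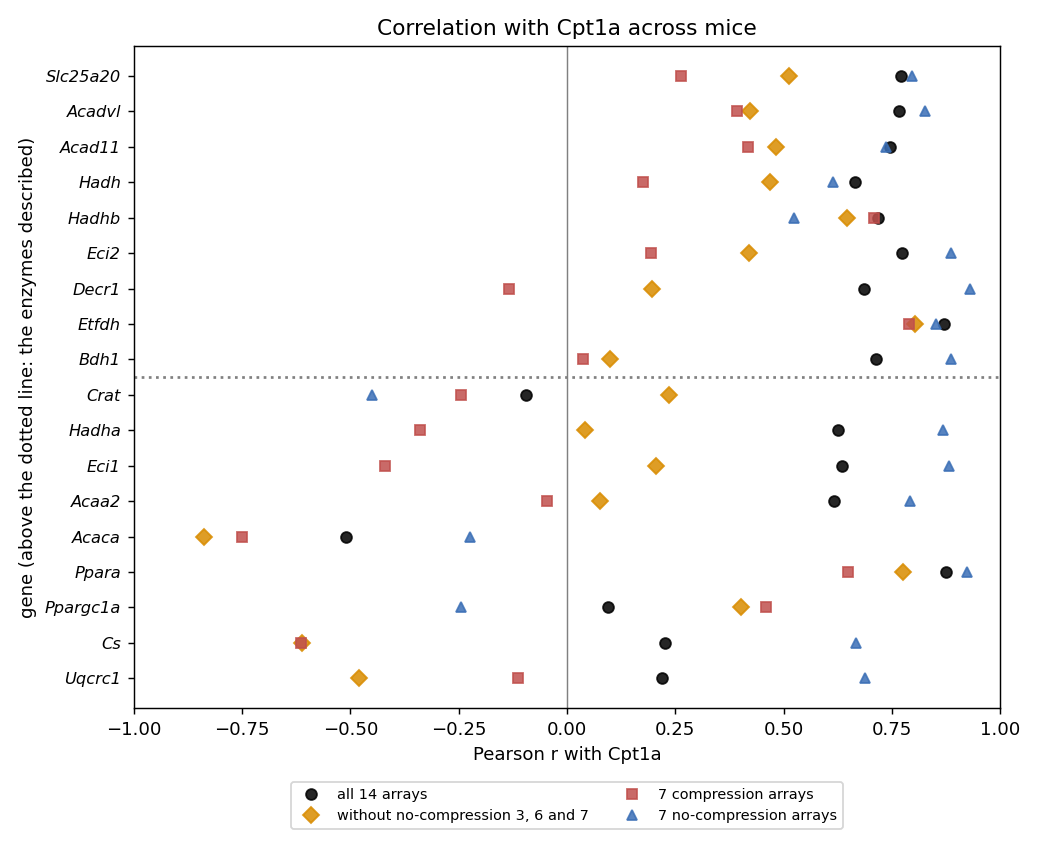
Pearson's r with Cpt1a for the 9 other enzymes (above the dotted line) and for 9 further genes of the pathway and of mitochondria, over all 14 arrays, over 11 arrays and within each group of 7. The no-compression arrays lie at 0.52 or above for the 9 enzymes, the compression arrays spread from −0.13 to 0.79, and Acaca lies below 0 in every set.

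The 5 named genes outside the list whose pattern was most like that of Cpt1a over 14 arrays, of 1064 candidates with spread, were Gys2 (r = 0.91), Gpcpd1 (0.89), Gpt2 (0.89), Slc27a2 (0.89) and Fcgrt (0.88). Gys2 is the glycogen synthase of liver, Gpcpd1 splits glycerophosphocholine, Gpt2 is an alanine aminotransferase of mitochondria, Slc27a2 activates and takes up very long fatty acids, and Fcgrt is the receptor that salvages albumin and antibodies. They were picked for this likeness, so no test is given. Each kept an r between 0.75 and 0.84 without no-compression replicates 3, 6 and 7, and between 0.64 and 0.78 within the compression arrays. Their log2 fold changes were 0.36, 0.46, 0.14, 0.16 and 0.07, with an adjusted p of 0.943 from limma for each.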

How the data were processed

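The values deposited are log2 expression, made by the authors from the array scans with qFarms (quantile normalization and a factor analysis of the probes) in R 3.4.4, the version in the submitters' processing notes; 200 ng of RNA had been labelled per liver. Of 29129 rows, 6923 control rows were left out, and 22206 probe sets were tested. The platform annotation named 1 gene for 19572 and none for 2634. Groups came from the sample titles. The groups were tested in limma 3.58.1 under R 4.3.3 (Benjamini-Hochberg over all probe sets). Each member was also tested by a two-sided exact permutation over 3432 splits, and correlations by 100000 permutations, or all orders within a group, in scipy 1.17.1 (Python 3.11.15, pandas 2.3.3, numpy 2.4.6). Rank products, which the methods of the study name, was written out anew with 49 random pairings and run as an alternative, because its calls follow the SD of a probe set: 528 of its 537 calls were probe sets with spread. The main group fit, the fit with Cpt1a as a covariate and rank products were also run on simulated data, and the alternative fits were not. The data simulated for rank products had the same SD in every probe set, unlike the deposited values. Members, lists, tests and alternatives were chosen with earlier results of these data known, and the motifs with the sequences in view. Named genes were the members, up to 6 genes with spread of each pathway list, and the 5 genes most like Cpt1a. Some genes of these lists were not analysed here. No read depth applies to arrays, whose number limits the precision. Figures were drawn with matplotlib 3.10.9.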

Additional observations from a re-analysis of the deposited data

How the results depend on the processing

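With limma 0 probe sets passed under every alternative run (normalization, filters, eBayes settings, the replicate block and arrays left out), while rank products called 537. An unadjusted p of limma under 0.05 was found for 112 to 1256 in the runs over all 22206 probe sets. It was found for 523 of 11103 with low probe sets left out, and for 92 of 1238 with only those with spread. All 10 enzymes stayed higher with any 1 array left out, and their median log2 fold change then lay between 0.0810 and 0.125. It was 0.0206 without no-compression replicates 3, 6 and 7, where Acadvl turned to −0.00702, Decr1 to −0.000899 and Bdh1 to −0.0639. Under quantile normalization Etfdh turned to −0.00617 and its r with Cpt1a to −0.317. The r of Decr1 with Cpt1a was −0.134 in the compression arrays alone. After adjustment over all probe sets 0 of 9 correlations with Cpt1a passed under any alternative run, while the count over all probe sets, 0 as reported, was 6 under quantile normalization, 9 under median centring, 1 without the 2 arrays farthest from the median of Cpt1a and up to 10 with 1 array left out (without no-compression replicate 4). With 1 array left out the lowest r was 0.414, for Decr1, without no-compression replicate 6. The replicate numbers gave no pairing, as same-numbered arrays deviated together with r between −0.488 and 0.336. With the replicate number as a block 0 probe sets passed, and the median log2 fold change of the enzymes was 0.107. Each enzyme had 1 probe set, so the choice of another could not be tried. No array lay far enough from its group in any enzyme to be singled out by Dixon's test (20 groups tested), and the 7 arrays of each group limit the precision. Bdh1 in no-compression replicate 6 (8.83, with replicate 3 next at 9.70) fell only just short of the limit of that test. Without replicate 6 the log2 fold change of Bdh1 was 0.0784. The test weighs the gap to the nearest array, so it cannot clear replicates 3, 6 and 7, which lay low together in several enzymes.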
